A study of Mus musculus with 4 samples.

Results

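The stefin A genes of mouse chromosome 16 encode small cysteine protease inhibitors and lie side by side in a single cluster. The 8 genes described here, *Stfa2l1*, *Gm5483*, *Gm5416*, *2010005H15Rik*, *Stfa1*, *BC100530*, *Stfa2* and *Stfa3*, were found by symbol among the 24346 genes measured. They had been picked because they differed between the groups in these same 4 libraries, so their levels and fold changes are a description and were not tested. Bone marrow (BM) cells of female C57BL/6J mice aged 6 to 8 weeks were cultured for 4 days with 40 ng/ml GM-CSF, which yields *in vitro* MDSCs (myeloid-derived suppressor cells, immature myeloid cells that restrain T cells). The G-CSF group (n = 2 libraries) also received 5 ng/ml G-CSF, the cytokine that drives granulocyte production, and the Control group (n = 2 libraries) did not. All 4 cultures therefore contained GM-CSF, and they were whole cultures, not sorted cells. The question was which genes G-CSF changes in these cells.

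Stefins are the cystatins without a signal peptide or disulphide bonds, and they act mainly inside the cell. A stefin blocks papain-like enzymes such as the lysosomal cathepsins by pushing its amino-terminal end and a pair of hairpin loops into the active site cleft, and the first loop carries a conserved motif known as QVVAG. Humans have a single stefin A gene, *CSTA*, whereas mice have a family of copies. In mice, stefin A transcripts are known from neutrophils and other myeloid cells and from epidermis, and stefin B (*Cstb*) is expressed in most cells.

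The coding bases around the first loop show how close the copies are to each other. The stretches below are 63 bases long and come from GENCODE M21 transcripts, 5′ to 3′, with the 15 bases aligned to the loop motif in capitals. The stretch of *Cstb*, outside the cluster, is given for comparison.
*Stfa1*: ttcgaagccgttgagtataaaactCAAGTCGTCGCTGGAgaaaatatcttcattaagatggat
*BC100530*: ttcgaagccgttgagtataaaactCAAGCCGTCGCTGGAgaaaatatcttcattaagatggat
*Gm5416*: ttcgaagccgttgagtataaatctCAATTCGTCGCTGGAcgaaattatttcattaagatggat
*Gm5483*: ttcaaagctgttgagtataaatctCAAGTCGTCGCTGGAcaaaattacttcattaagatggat
*2010005H15Rik*: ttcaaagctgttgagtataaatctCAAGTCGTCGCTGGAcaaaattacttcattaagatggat
*Stfa3*: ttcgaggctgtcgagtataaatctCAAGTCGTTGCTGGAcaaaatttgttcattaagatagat
*Stfa2l1*: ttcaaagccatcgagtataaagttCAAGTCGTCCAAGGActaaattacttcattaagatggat
*Stfa2*: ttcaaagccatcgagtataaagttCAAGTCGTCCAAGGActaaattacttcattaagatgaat
*Cstb*: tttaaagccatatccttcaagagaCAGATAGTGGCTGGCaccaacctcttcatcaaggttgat

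Against *Stfa1*, *BC100530* differed at 1 of the 63 bases, *Gm5483* and *2010005H15Rik* at 6 each, *Gm5416* at 7, *Stfa3* at 9, *Stfa2l1* at 12 and *Stfa2* at 13. *Gm5483* and *2010005H15Rik* had the same bases in the whole stretch, with 0 differences. *Stfa2l1* and *Stfa2* differed from each other at 1 base. *Cstb* differed from *Stfa1* at 25 bases.

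Over the whole coding sequence, of 294 or 312 bases, the copies fell into 3 close pairs. *Stfa1* and *BC100530* were identical at 98.0% of coding bases, *Gm5483* and *2010005H15Rik* at 96.9%, and *Stfa2l1* and *Stfa2* at 96.5%. The lowest identity among the 28 pairs of members was 73.4%, and the median was 79.8%. Matches were counted over the length of the longer sequence, so gaps between sequences of 294 and 312 bases count as differences. *Gm5416* was closest to *BC100530* among the members, at 88.4%. *Stfa3* belonged to none of the close pairs.

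**Figure D1:**
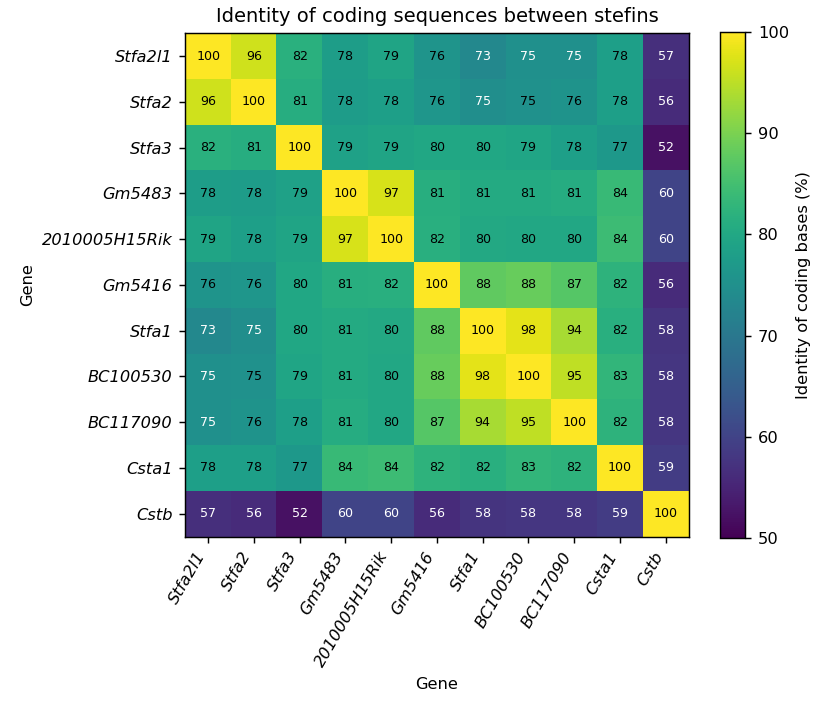
Identity of coding bases, in percent of the longer sequence of each pair, between the 8 stefin A genes, *BC117090* and *Csta1* (related genes of the same region) and *Cstb*, with genes on both axes and colour for identity. The 3 close pairs of members stand out at 96.5% to 98.0%, *BC117090* reaches 95.2% with *BC100530*, and each gene is least like *Cstb*.

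Such identity limits how well 75-base reads separate the copies. A window of 75 bases that also occurs in another gene's transcripts made up 23.5% of the windows of *Gm5483* (shared with *2010005H15Rik*) and 22.4% of those of *BC100530* (shared with *Stfa1* and *BC117090*). The shares were 14.2% for *2010005H15Rik*, 10.7% for *Stfa1*, 7.83% for *Stfa2l1* and 5.79% for *Stfa2*. For *Gm5416* and *Stfa3* 0 windows were shared. Allowing 2 mismatches, an alternative added after the data were seen, raised the shares to 66.8% for *BC100530*, 65.6% for *Stfa1*, 62.0% for *Stfa2l1*, 60.9% for *Gm5483*, 43.8% for *Stfa2* and 34.5% for *2010005H15Rik*, and left *Gm5416* and *Stfa3* at 0. The split of reads within each close pair is therefore uncertain. By this measure *Stfa3* and *Gm5416* are the members whose reads were separable from those of the other members. The search with mismatches covered only the members and related stefin genes, not all transcripts.

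The cluster spans 298.6 kb (chr16:36156811-36455392, GRCm38). From its start, *Stfa2l1* (chr16:36156811-36161953), *Gm5483* (chr16:36184212-36188111), *Gm5416* (chr16:36210403-36217788), *2010005H15Rik* (chr16:36221468-36257444) and *Stfa1* (chr16:36276951-36285373) lie on the plus strand. *BC100530* (chr16:36359382-36367748), *Stfa2* (chr16:36403992-36408457) and *Stfa3* (chr16:36450537-36455392) follow on the minus strand. The pairs *Stfa2l1* with *Stfa2* and *Stfa1* with *BC100530* thus have a copy on either strand, and *Gm5483* and *2010005H15Rik* share theirs.

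The libraries held an estimated 12.45 to 15.60 M reads each, worked out from the steps between the lowest values, and 12025 genes had enough reads to be tested. Markers of hepatocytes, tested because a label names liver tissue, were at 0 in every library for 5 of 8 genes (summed 2.29 to 2.30 FPKM in Control and 1.38 to 1.92 with G-CSF), and the keratinocyte markers were at 0 for 5 of 7. Values are FPKM, which relates mapped fragments to transcript length and library size. Between genes, the levels also depend on how short transcripts are treated and, for near copies, on how shared reads are split. Fold changes on the log2 scale were fitted to log2(FPKM + 0.1). In these bulk libraries, a change in the number of cells of a type and a change of RNA per cell cannot be told apart.

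All 8 genes were higher in both G-CSF libraries than in both Control libraries. Their summed level was 1316 and 1173 FPKM in Control and 6451 and 5944 FPKM with G-CSF, which is 1244 ± 101 FPKM and 6198 ± 358 FPKM (mean ± SD, n = 2 each) and a ratio of 4.98. In Control the cluster made up 0.196% and 0.183% of all FPKM of the library, and with G-CSF 1.00% and 0.922%. All 8 were also among the 64 genes called higher (adjusted p under 0.05 and a fold change over 2), 0.532% of genes tested, but they were chosen on this contrast, and nothing is read from that count. G-CSF libraries lay above Control libraries without overlap for 33.6% of all genes tested.

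**Figure D2:**
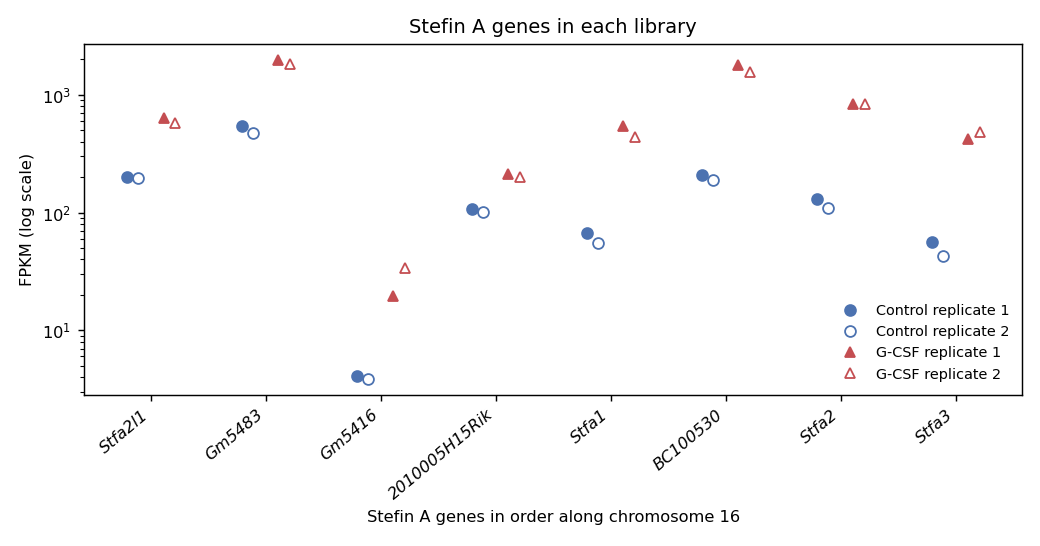
FPKM on a log axis for each stefin A gene, in order along the chromosome, in the 2 Control libraries (circles) and the 2 G-CSF libraries (triangles), with filled symbols for replicate 1 and open symbols for replicate 2. For each gene both triangles lie above both circles, by the smallest distance for *2010005H15Rik*.

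*Stfa1* measured 66.8 and 55.1 FPKM in Control and 542 and 443 FPKM with G-CSF. The G-CSF mean was 8.08-fold the Control mean, and the ratios between single libraries ran from 6.62 to 9.85. *BC100530*, its near copy, measured 210 and 188 FPKM in Control and 1802 and 1554 FPKM with G-CSF. Its ratio was 8.43, with a range of 7.39 to 9.59 that lay within that of *Stfa1*. The pair had overlapping ratios but not levels, as *BC100530* stood above *Stfa1* in all 4 libraries.

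*Stfa2* measured 130 and 110 FPKM in Control and 839 and 836 FPKM with G-CSF, a ratio of 6.98 (range 6.42 to 7.64). *Stfa2l1*, which is 96.5% identical to it, measured 203 and 195 FPKM in Control and 632 and 574 FPKM with G-CSF, a ratio of 3.04 (range 2.84 to 3.24). The order of the pair was opposite in the groups, with *Stfa2l1* above *Stfa2* in both Control libraries and below it in both G-CSF libraries. The ranges of their ratios did not overlap.

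*Gm5483*, which RefSeq lists as *Cstdc4*, was the highest of the cluster, at 539 and 478 FPKM in Control and 1979 and 1818 FPKM with G-CSF. Its ratio was 3.73 (range 3.37 to 4.14). It ranked 173rd and 191st among all genes by FPKM in Control and 34th and 37th with G-CSF. *2010005H15Rik*, its near copy, measured 107 and 100 FPKM in Control and 213 and 202 FPKM with G-CSF, a ratio of 2.01 (range 1.89 to 2.13), the smallest in the cluster. The log2 fold change of *2010005H15Rik*, 1.00 (SE 0.052), stood at the limit of a call, and it was 0.96 without Control replicate 2, 0.96 without G-CSF replicate 1 and 0.99 after upper-quartile scaling.

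*Stfa3*, which shares no 75-base window with another gene, measured 56.3 and 43.2 FPKM in Control and 422 and 484 FPKM with G-CSF. Its ratio of 9.11 (range 7.50 to 11.2) was the largest of the 8. *Gm5416*, the other member with no shared window, was far lower, at 4.12 and 3.89 FPKM in Control and 19.5 and 33.9 FPKM with G-CSF, a ratio of 6.67 (range 4.74 to 8.72). About 5 reads in each Control library and 20 and 44 in the G-CSF libraries stood behind these values. Its annotated transcript holds the coding sequence alone (294 bases), which makes its FPKM less certain, and it passed the filter on low values through the G-CSF libraries alone. The other 7 members had at least 123 estimated reads in each library. The largest log2 fold changes were 3.19 (SE 0.126) for *Stfa3*, 3.07 (SE 0.086) for *BC100530* and 3.01 (SE 0.119) for *Stfa1*. The median over the 8 was 2.73, beside 0.00078 over all genes tested.

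The replicates also differed within the groups. All 8 members were lower in Control replicate 2 than in replicate 1, by the most for *Stfa3*, whose replicate 2 stood at 0.767 of replicate 1. Of the 8, 6 were lower in G-CSF replicate 2 than in replicate 1, and *Stfa3* and *Gm5416* were higher there, at 1.15 and 1.74 times replicate 1. These gaps were smaller than the gap between the groups for each member.

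In Control, *Gm5483* (509 FPKM on average) was followed by *BC100530* (199 FPKM) and *Stfa2l1* (199 FPKM), whose libraries overlapped. *Stfa2* (120 FPKM), *2010005H15Rik* (103 FPKM), *Stfa1* (60.9 FPKM) and *Stfa3* (49.8 FPKM) came next, with overlap between the last 2, and *Gm5416* (4.01 FPKM) was lowest. With G-CSF, *Gm5483* (1899 FPKM), *BC100530* (1678 FPKM), *Stfa2* (838 FPKM) and *Stfa2l1* (603 FPKM) were followed by *Stfa1* (492 FPKM) and *Stfa3* (453 FPKM), which overlapped, and then by *2010005H15Rik* (208 FPKM) and *Gm5416* (26.7 FPKM). This order rests on how short transcripts are treated. Per full transcript length, added after the data were seen, *BC100530* (1109) stood above *Gm5483* (936) with G-CSF, and the ratio of the sums was 5.13.

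**Figure D3:**
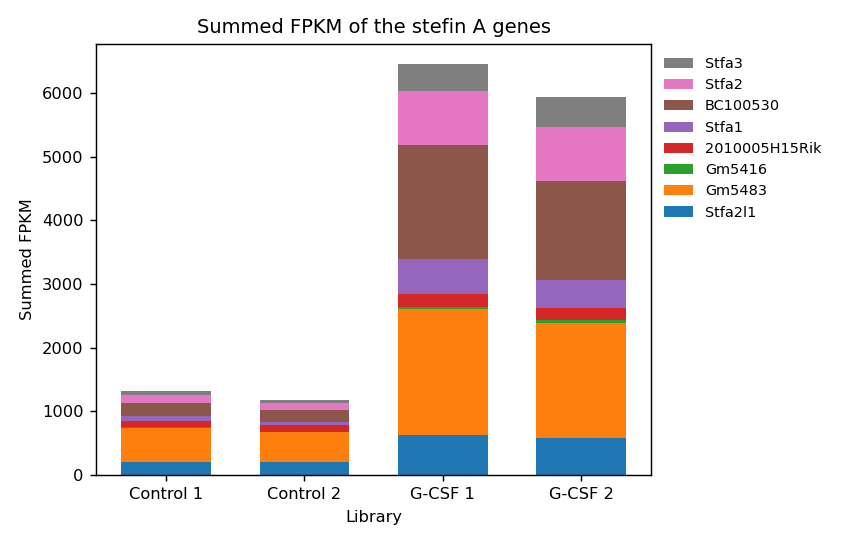
Summed FPKM of the 8 stefin A genes in each library, stacked by gene. The 2 G-CSF bars reach 6451 and 5944 FPKM against 1316 and 1173 FPKM in Control, with *Gm5483* the largest part of each bar and *BC100530* a larger part with G-CSF.

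The make-up of the cluster shifted with the unequal ratios. *Gm5483* held 40.9% of the summed FPKM on average in Control and 30.6% with G-CSF, and *BC100530* held 15.99% and 27.0%. *Stfa2l1* went from 16.01% to 9.73% and *2010005H15Rik* from 8.32% to 3.35%. *Stfa2* (9.63% to 13.5%), *Stfa1* (4.89% to 7.93%) and *Stfa3* (3.98% to 7.34%) took larger shares with G-CSF, and *Gm5416* stayed under 1% in each library. *BC100530* alone made up 29.9% of the difference in summed FPKM and *Gm5483* 28.1%.

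The genes around the cluster were read to see how far the difference extended. Of 61 genes annotated within 500 kb, 22 were in the tables and 16 could be tested, of which 3 rose, 0 fell and 13 did not pass (adjusted p under 0.05, limma with Benjamini-Hochberg adjustment). Of all genes tested, 12.5% rose and 11.4% fell by this rule, and the median log2 fold change of the neighbours was -0.07. The count that fell depended on the fit, with 4 under limma voom on estimated reads, 2 without G-CSF replicate 2, 1 without Control replicate 2 and 1 after upper-quartile scaling, and 1 rose without the filter. *BC117090* (chr16:36321665-36334332), a stefin A-like gene between *Stfa1* and *BC100530*, measured 0.833 and 1.97 FPKM in Control and 4.93 and 4.29 FPKM with G-CSF. Its log2 fold change was 1.76 (SE 0.348, adjusted p = 0.0168), and about 2 and 5 reads in the Control libraries and 11 and 12 in the G-CSF libraries stood behind it. It passed the filter through its G-CSF libraries alone, its adjusted p was 0.0612 without the filter, its log2 fold change was 1.18 without Control replicate 1 and 2.33 without Control replicate 2, and 20.4% of its windows occur in *BC100530*.

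*Ccdc58*, a mitochondrial protein gene, measured 24.2 and 20.8 FPKM in Control and 34.4 and 31.6 FPKM with G-CSF (0.56 on the log2 scale, adjusted p = 0.00886). *Fam162a*, a hypoxia-responsive mitochondrial gene, measured 97.5 and 75.8 FPKM in Control and 145 and 111 FPKM with G-CSF (0.56, adjusted p = 0.0431). *Fam162a* no longer passed without Control replicate 2 (0.38), G-CSF replicate 1 (0.37) or the filter (adjusted p = 0.1175). *Cd86*, a costimulatory ligand on the other side of the cluster, did not pass, at 22.2 and 16.2 FPKM in Control and 14.3 and 13.04 FPKM with G-CSF (-0.47, adjusted p = 0.0599). It did pass under limma voom (adjusted p = 0.0286), after upper-quartile scaling (adjusted p = 0.0486) and without Control replicate 2 (-0.70, adjusted p = 0.00951). *Csta1*, annotated beside the cluster, was listed at 0 in all 4 libraries.

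**Figure D4:**
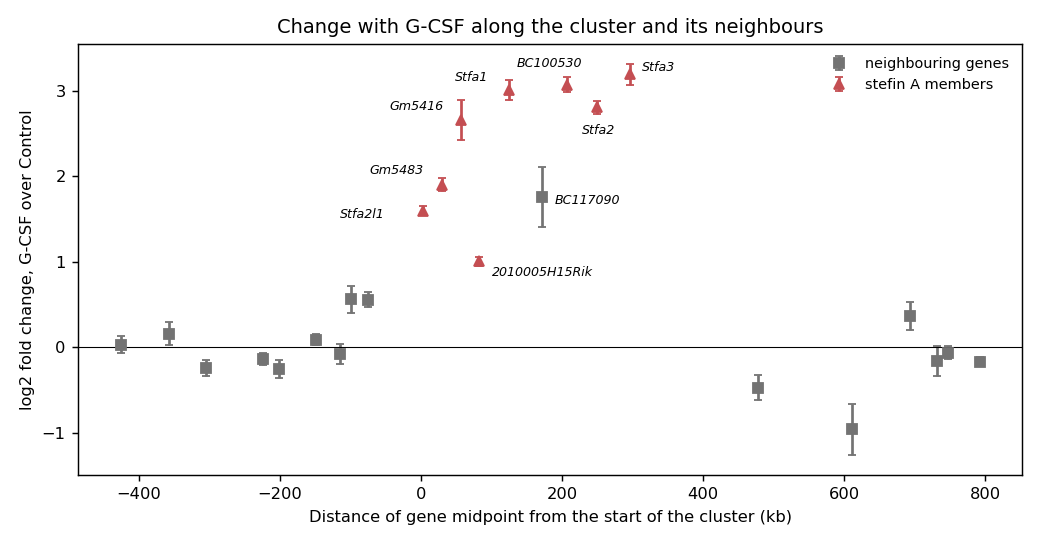
Fitted log2 fold change of G-CSF over Control (bars, SE of the fit) for the 8 stefin A genes (triangles) and the 16 tested genes within 500 kb (squares), by the distance of the gene's midpoint from the start of the cluster in kb. The members lie between 1.00 and 3.19, *BC117090* at 1.76, and the other neighbours lower than each member.

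Promoter sequences are shown for the pair with the most unequal ratios among copies, for *Stfa1* and *Stfa3*, and for the member with the smallest ratio. Each is the 120 bases before the RefSeq transcript start (GRCm38.p6), 5′ to 3′ on the gene's strand. GENCODE places some starts farther upstream. By its positions the stretch of *Stfa1* lies inside the gene, and those of *Stfa2* and *2010005H15Rik* lie partly inside theirs. Capitals mark GAGGAGG and TTTAAAACC, runs picked because they were seen in these promoters.
*Stfa1*, chr16:36277028-36277147, plus strand: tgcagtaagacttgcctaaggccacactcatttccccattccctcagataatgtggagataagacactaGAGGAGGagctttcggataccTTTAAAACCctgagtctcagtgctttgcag
*Stfa2*, chr16:36408364-36408483, minus strand: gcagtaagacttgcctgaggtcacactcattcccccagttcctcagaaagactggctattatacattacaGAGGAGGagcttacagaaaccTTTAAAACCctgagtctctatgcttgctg
*Stfa2l1*, chr16:36156691-36156810, plus strand: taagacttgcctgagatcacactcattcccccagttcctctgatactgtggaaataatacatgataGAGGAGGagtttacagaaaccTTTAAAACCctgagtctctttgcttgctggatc
*Stfa3*, chr16:36455393-36455512, minus strand: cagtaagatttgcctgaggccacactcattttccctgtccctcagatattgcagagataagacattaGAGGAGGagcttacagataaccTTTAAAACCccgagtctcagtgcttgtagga
*2010005H15Rik*, chr16:36221442-36221561, plus strand: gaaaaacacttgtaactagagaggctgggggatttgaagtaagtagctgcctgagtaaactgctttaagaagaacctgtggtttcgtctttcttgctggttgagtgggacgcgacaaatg

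In the 250 bases before the start, TTTAAAACC occurred, on either strand, in 7 of 8 members and in 0.344% of 32851 promoters. GAGGAGG occurred in 6 of 8 members and 13.6% of promoters. *2010005H15Rik* held neither run, and *Gm5416* lacked GAGGAGG. The annotated gene of *2010005H15Rik* (chr16:36221468-36257444) is far longer than that of its near copy *Gm5483* (chr16:36184212-36188111). Whether its annotated start matches those of the other copies was not tested. TTTAAAACC began 29 to 33 bases before the start in *Stfa2l1* (-33), *Stfa3* (-31), *Stfa1* (-30), *Gm5483* (-29) and *Stfa2* (-29), and nearer or farther in *BC100530* (-9) and *Gm5416* (-77), whose annotated starts differ. The members are copies of each other, so that these are not independent matches.

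Known motifs of factors active in granulocytes were searched on both strands of the same 250 bases. The STAT motif TTCCNGGAA was in 0 of 8 members (0.913% of all promoters), and the looser TTCNNNGAA, which contains it, in 1, *Gm5483* (7.02%). The C/EBP motif TTNCNNAA was in 6 of 8, all but *2010005H15Rik* and *Stfa3* (36.8% of all promoters), and the PU.1 motif GAGGAA in 6 of 8, all but *Gm5416* and *2010005H15Rik* (23.3%). The TATA box letters TATAAA were in 0 of 8 (12.4%). A match describes the letters and is no evidence of binding. As the members are copies of each other, these counts are not of independent promoters either. The bases searched for *BC100530* lie partly inside its gene as GENCODE places it.

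The other cystatins did not share the pattern as a group. Of 16 in the tables, 10 were listed at 0 in each library and 3 could be tested, of which 1 rose and 1 fell, with a median log2 fold change of -0.19. *Cst7*, which encodes cystatin F, an inhibitor of cathepsin C in granules and lysosomes, measured 33.2 and 31.9 FPKM in Control and 65.7 and 59.0 FPKM with G-CSF (log2 fold change 0.93, SE 0.065, adjusted p = 0.00156). *Cst3*, which encodes the secreted cystatin C, fell from 1797 and 1518 FPKM to 1156 and 1053 FPKM (-0.58, adjusted p = 0.0093). *Cstb* measured 584 and 591 FPKM in Control and 491 and 545 FPKM with G-CSF and did not pass (-0.19, adjusted p = 0.0673). *Cstb* passed under limma voom (adjusted p = 0.0369) and without G-CSF replicate 2 (-0.26, adjusted p = 0.0379), which made 2 cystatins that fell. The summed FPKM of the stefin A genes was 2.25 and 1.98 times that of *Cstb* in Control and 13.1 and 10.9 times with G-CSF. The size of these ratios depends on how short transcripts are treated.

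*Camp* and *Ngp*, granule proteins with a cystatin-like cathelin domain, both fell. *Camp*, the cathelicidin, went from 818 and 757 FPKM to 248 and 201 FPKM (log2 fold change -1.81, adjusted p = 0.000523), past the fold change limit as well. *Ngp* went from 5434 and 4487 FPKM to 3398 and 3361 FPKM (-0.55, adjusted p = 0.0139), and did not pass without the filter (adjusted p = 0.058). Genes called lower by both limits made up 0.923% of genes tested.

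The cysteine cathepsins, the main known targets of stefins, included 0 that rose and 3 that fell of 9 tested, with a median log2 fold change of -0.18. *Ctsh*, an aminopeptidase, fell from 166 and 175 FPKM to 125 and 119 FPKM (-0.48, adjusted p = 0.00412). *Ctss*, which trims the invariant chain in antigen presentation, fell from 714 and 751 FPKM to 553 and 547 FPKM (-0.41, adjusted p = 0.00506). *Ctsk*, a collagen-degrading enzyme, fell from 9.39 and 11.6 FPKM to 5.25 and 6.84 FPKM (-0.79, adjusted p = 0.0167), and *Ctsb* did not pass (-0.18, adjusted p = 0.0574). Without the filter 2 cathepsins fell, *Ctsk* being lost (adjusted p = 0.0565), and without Control replicate 2, 1 rose. *Ctsb* passed under limma voom (adjusted p = 0.0233), after upper-quartile scaling (adjusted p = 0.0495) and without G-CSF replicate 2 (-0.24, adjusted p = 0.0422). The summed FPKM of the stefin A genes was 0.561 and 0.478 of that of the cathepsins in Control and 3.15 and 2.80 times it with G-CSF. The stefin A transcripts (294 to 639 bases) are shorter than those of the cathepsins (1241 to 4743 bases). With G-CSF *Gm5483* stood at 1899 FPKM but at 936 per full transcript length, so the size of these ratios depends on how short transcripts are treated.

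**Figure D5:**
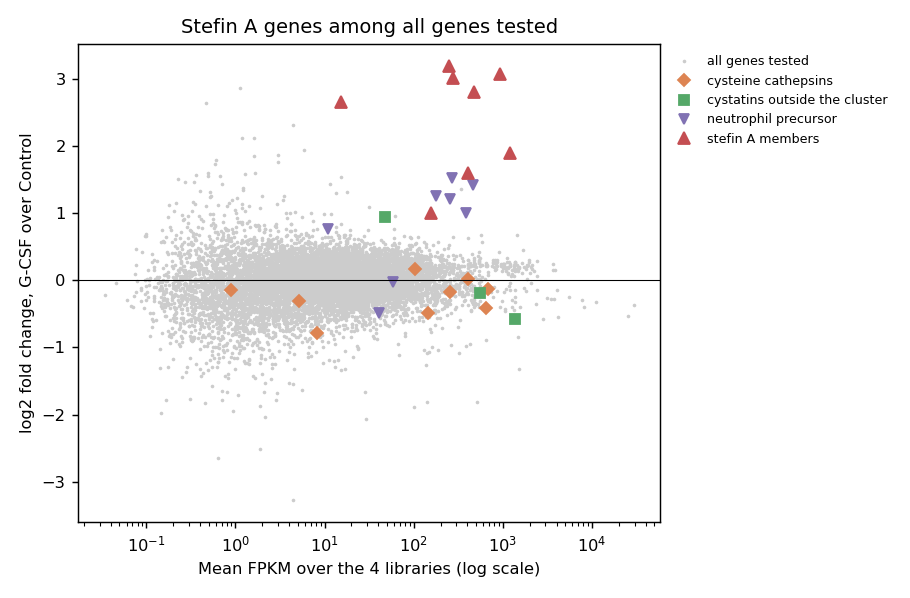
Fitted log2 fold change of G-CSF over Control against mean FPKM over the 4 libraries on a log axis, for all 12025 genes tested (grey dots), with the stefin A genes, the cysteine cathepsins, the other cystatins and the neutrophil precursor markers marked. The stefin A genes lie between 1.00 and 3.19 and the cathepsins around 0 (median -0.18).

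Of 8 calpains and calpastatin tested, cytosolic cysteine proteases and their inhibitor, 0 rose and 2 fell, with a median of -0.16. *Capn1* went from 67.0 and 66.8 FPKM to 55.1 and 57.5 FPKM (-0.25, adjusted p = 0.0145) and *Cast*, the calpastatin gene, from 50.5 and 50.3 FPKM to 43.2 and 44.2 FPKM (-0.20, adjusted p = 0.0239). *Capn1* no longer passed without Control replicate 1 or G-CSF replicate 1, and *Cast* without any of the 4 libraries (-0.19 to -0.22), whereas *Capn2* passed without G-CSF replicate 2 (-0.29, adjusted p = 0.0388).

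Of 19 other protease inhibitors tested, 2 rose and 5 fell, with a median of -0.08. The count that rose was 4 without Control replicate 2 and 4 without G-CSF replicate 2, the count that fell was 2 without G-CSF replicate 1, and 1 rose and 2 fell without the filter. *Serpinb1a*, an inhibitor of neutrophil serine proteases, rose from 130 and 124 FPKM to 166 and 153 FPKM (0.33, adjusted p = 0.0112). *Wfdc17* also rose, by 0.30 (adjusted p = 0.0246), but did not pass without Control replicate 1 (0.24), G-CSF replicate 1 (0.22) or the filter (adjusted p = 0.0703). *Timp2*, a metalloproteinase inhibitor, fell from 26.2 and 24.7 FPKM to 15.1 and 16.2 FPKM (-0.70, adjusted p = 0.00324), and *Pi16* fell (-0.40, adjusted p = 0.00767). The gene past both limits, *Serpinb10* (-1.07), was named after its value was seen.

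Markers of cell types moved with the groups. Of 8 neutrophil precursor markers, 6 rose and 0 fell, and their summed level was 939 to 1097 FPKM in Control and 2211 to 2358 FPKM with G-CSF. *Prtn3*, a primary granule protease, went from 273 and 224 FPKM to 691 and 637 FPKM (1.42, adjusted p = 0.001335), and *Elane*, neutrophil elastase, from 280 and 232 FPKM to 550 and 467 FPKM (0.99, adjusted p = 0.00438). Of 11 markers of the neutrophil list, *Camp*, *Ngp* and *Csf3r* among them, 0 rose and 9 fell, and their sum was 70080 to 80540 FPKM in Control and 53726 to 54057 FPKM with G-CSF. *S100a9*, a calcium-binding protein gene, went from 31959 and 27310 FPKM to 20506 and 20521 FPKM (-0.53, adjusted p = 0.0291). *S100a9* no longer passed without Control replicate 1 (-0.41), G-CSF replicate 1 (-0.53), G-CSF replicate 2 (-0.53) or the filter (adjusted p = 0.167). *S100a8* did not pass (-0.36, adjusted p = 0.0887), though it did under limma voom (adjusted p = 0.00265). No marker of either list was at 0 in every library, and their part in the difference of the stefin A genes was not tested.

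The G-CSF receptor gene *Csf3r* measured 50.2 and 48.3 FPKM in Control and 34.6 and 40.3 FPKM with G-CSF (log2 fold change -0.40, adjusted p = 0.0166). It no longer passed without Control replicate 1 (-0.37) or without the filter (adjusted p = 0.0522). Of the other lists, monocyte markers had 1 that rose and 1 that fell of 8 tested, macrophage markers 0 and 5 of 8, dendritic cell markers 0 and 6 of 9, mast cell and basophil markers 0 and 6 of 8, eosinophil markers 0 and 3 of 6, T cell markers 0 and 2 of 4 and B cell markers 0 and 1 of 3. Several of these calls were lost with other settings. *Csf1r*, the monocyte marker that fell, did not pass without Control replicate 2 or G-CSF replicate 1, the macrophage marker *Cd68* with any of the 4 libraries left out, and *Mrc1* without Control replicate 2, G-CSF replicate 1 or the filter. *Cd3d* of the T cell markers did not pass without the filter, Control replicate 1, Control replicate 2 or G-CSF replicate 2, and *Cd79a*, the B cell marker that fell, without the filter, Control replicate 1 or G-CSF replicate 2. Of the hepatocyte markers, 1 could be tested and 0 passed, and of the erythroid and keratinocyte markers 0 could be tested. Summed over the list, the keratinocyte markers stayed under 0.2 FPKM in each library.

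The genes outside the cluster whose pattern over the 4 libraries was most like the members' mean were *Muc13*, *Steap4*, *Ggt1*, *Mcam* and *Bcat1*, by the Euclidean distance between centred log2(FPKM + 0.1) values. Their distances were 0.534, 0.580, 0.590, 0.752 and 0.885, beside a median of 2.40 over 10784 genes compared. The members' own distances ran from 0.404 (*Stfa2*) to 1.40 (*2010005H15Rik*). *Muc13*, a transmembrane mucin gene also on chromosome 16, measured 2.19 and 2.50 FPKM in Control and 9.28 and 9.24 FPKM with G-CSF. *Steap4*, a metalloreductase gene, measured 0.254 and 0.144 FPKM in Control and 1.78 and 2.33 FPKM with G-CSF. *Ggt1*, the gamma-glutamyltransferase that splits extracellular glutathione, measured 1.17 and 1.29 FPKM in Control and 4.48 and 5.01 FPKM with G-CSF. All 5 lay below each member in mean FPKM in both groups.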

How the data were processed

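RNA of 2 Control and 2 G-CSF cultures, called biological replicates in a figure legend of the study, had been sequenced as stranded mRNA libraries over 75 bases from a single end. The authors deposited a table of values per library, taken here as FPKM because the values were not whole numbers and followed transcript length. The submitters' processing notes name TopHat2 2.0.13, Bowtie2 2.2.3, SAMtools 0.1.19, Cufflinks 2.2.1 and mm10. The annotation and settings are not given in the sources used here. The labels name liver tissue in the extraction text, whereas the study's methods name the cells.

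Reads per gene were estimated from FPKM, transcript length and depth, and 66.7% to 68.5% of the 1366 to 1394 low values checked per library lay within 0.05 of a whole read, against 10.0% by chance. Genes were kept where 2 libraries had 10 or more such reads and the total reached 15, and were fitted with limma 3.58.1 (lmFit and eBayes with trend, two-sided, no replicate block) in R 4.3.3 on log2(FPKM + 0.1), with Benjamini-Hochberg adjustment over all 12025 genes tested. Genes passed at an adjusted p under 0.05 and were called at a fold change over 2 as well. With 2 libraries a group, each p-value sets a difference against the spread between these samples, a spread partly borrowed from other genes of like level.

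The members and gene lists were chosen with earlier results of these data known, and no p-value is given for the members. Named genes are all members, at most 4 tested genes of each protein list and of the neighbours with the smallest p, the 5 genes most like the members, the 2 highest markers of a list and *Csf3r*, and not each is described. Positions and transcripts came from GENCODE M21 and promoters from RefSeq, in which 8 of 8 members were found. The filter and the main fit were tested on simulated reads, and the other steps were not. Alternatives were other scalings, filters and pseudocounts, limma voom on estimated reads, the replicate block, each library left out, and other window lengths.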

Additional observations from a re-analysis of the deposited data

How the results depend on the processing

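All 8 members stayed higher with G-CSF under each alternative in which they were tested, which left out *Gm5416* where 10 reads in every library were asked for. The members were chosen on this contrast and their groups did not overlap, so leaving out a library could not reverse them. Their median log2 fold change (2.73) ran from 2.53 to 2.83 with each library left out, lowest without G-CSF replicate 2, and the ratio of summed FPKM (4.98) from 4.71 to 5.28. Over all genes, 64 were called higher and 111 lower. A pseudocount of 1 FPKM gave 57 calls, 25 higher and 32 lower, and a filter of 10 reads in every library 39 higher. Leaving out a library gave 42 to 73 higher, lowest without G-CSF replicate 1, and genes passing the adjusted p alone fell from 2874 to between 1443 and 1900, or 1626 without a filter. Calls within the protein lists (3) came to 1 without a filter and ran from 2 to 6 with a library left out, highest without G-CSF replicate 2. Directions reversed for *Cd3g* without Control replicate 1 (0.22) or G-CSF replicate 2 (0.10; range with each library left out -0.43 to 0.22), for *Ear2* without Control replicate 2 (0.032; range -0.53 to 0.032) and for *Cd79b* without G-CSF replicate 1 (-0.14; range -0.14 to 0.33), all markers that did not pass, although *Ear2* did without Control replicate 1 (adjusted p = 0.00775). The cause was not tested. Where a library was left out, the lone sample of its group is assumed to vary like the others.

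The replicate numbers share no source by the labels, and the 2 pairs deviated with r = 0.236 over genes, with the second principal component (22.3% of variance) separating the numbers. With a replicate block, 190 genes were called, 68 higher and 122 lower, and 4009 passed the adjusted p. Of the protein lists and the neighbours together, 36 genes passed. By list, 5 neighbours fell, 1 cathepsin rose and 5 fell, 5 other inhibitors rose and 9 fell, and 2 cystatins fell. *Cd86*, *Cstb*, *Ctsb*, *Capn2* and *S100a8* passed, as did the tested hepatocyte marker, *Cyp2e1* (-0.72, adjusted p = 0.0334). The FPKM tables limit what can be said of low genes: *Gm5416* and *BC117090* rest on under 50 estimated reads in each library. Shared windows of the members rose with shorter windows, for *BC100530* to 56.4% at 30 bases.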
